A study of Mus musculus with 7 samples.

Results

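Indian hedgehog (Ihh) and parathyroid hormone-related protein (PTHrP, encoded by Pthlh) form the feedback loop that paces cartilage growth in the growth plate. Chondrocytes leaving proliferation release Ihh, which acts through the receptor Ptch1, the transducer Smo and the Gli transcription factors. PTHrP made near the end of the bone acts through its receptor Pth1r on proliferating chondrocytes and delays their hypertrophy, and hedgehog signalling keeps PTHrP expression up. Gli1, Ptch1 and Hhip are themselves hedgehog target genes, so their RNA is widely read as an output of the pathway.

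The 9 genes Ihh, Pthlh, Pth1r, Ptch1, Smo, Gli1, Gli2, Gli3 and Hhip were selected by symbol from the 43346 genes in the count tables. They were measured in the tibial growth plates of 7 male C57BL/6JxCAST/EiJ F1 mice aged 21 d, which form 1 group (the parental strains are called B6 and CAST below). The growth plates of both ends of the tibia were dissected and homogenized as whole tissue, and rRNA-depleted total RNA was sequenced. Every autosomal gene is present as 1 B6 and 1 CAST allele, so the question addressed by the sequencing was whether RNA came unequally from the 2 alleles. The values are estimated counts per gene and allele, 14098019 to 37849667 per mouse over both alleles. These totals are above the average number of reads per sample that the study states, for a reason not given in the sources used here. Mice keep the numbers of their labels (1, 2, 3, 4, 5, 7 and 8). Of the mitochondrial counts, 99.98% to 99.99% were B6. The direction of the cross is not given in the sources used here. By the mitochondrial share, no mouse stood out as coming from the reverse cross. Strain and parent of origin of an allele thus cannot be told apart here.

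The labels call the tissue growth plate chondrocyte, which was checked against marker genes. Cartilage markers (Col2a1, Acan, Col9a1, Comp, Matn3 and Sox9) summed to 53015 to 99702 CPM (counts-per-million, scaled by TMM, edgeR's library size correction), and hypertrophic cartilage markers (Col10a1, Panx3, Mmp13 and Alpl) to 3299 to 5893. Markers of other cell types were also abundant, so the label covers more than chondrocytes. Osteoblast markers summed to 35003 to 67998, osteoclast markers to 4097 to 6244, fast muscle markers to 3197 to 6048, erythroid markers to 4137 to 10339 and neutrophil markers to 1372 to 2750. Collagen genes made up most of the cartilage, hypertrophic and osteoblast sums. Col2a1 had 39303 to 80652 CPM, Col10a1 2207 to 4514, and Col1a1, of the osteoblast list, 32281.5 to 65483. Endothelial markers summed to 159 to 212, B-lineage markers to 79.4 to 253 and adipocyte markers to 51.7 to 80.1, all on the same scale. All genes of these lists had counts in every mouse. Keratinocyte markers, of a cell type known to express Pthlh, summed to 0.0766 to 0.269 CPM, and 0 of the 3 had counts in every mouse. In bulk tissue, fewer cells of a type and less RNA per cell cannot be told apart.

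All 9 genes were detected from both alleles in every mouse. Levels were compared between genes per length, as TMM-scaled CPM per kilobase of merged exons. Pth1r, the PTHrP receptor, was by far the most abundant, and Pthlh, which encodes its ligand, the least. Pth1r ran from 104 to 167 with a median of 125 (mean 128.02 ± 21.5 SD, n = 7), above 97.2% of the 20239 tested genes. Pthlh ran from 1.37 to 2.98 with a median of 2.06 (mean 1.92 ± 0.585 SD, n = 7). Within a mouse the receptor stood 41.8- to 102-fold above the ligand, with a median of 78.5-fold (two-sided exact permutation test that flips the sign of the log2 ratio in each mouse, p = 0.0156, the smallest that 7 mice allow). Pthlh rested on 50 to 138 counts per mouse, the fewest of the 9 genes, whereas Pth1r had 4421 to 14611.

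The other ligand, Ihh, had a level of 15.9 to 39.3 with a median of 23.3 (mean 24.0 ± 7.66 SD, n = 7). Ihh is made by prehypertrophic chondrocytes, and its level was 8.25- to 19.1-fold that of Pthlh within a mouse (exact sign-flip permutation test, p = 0.0156). Smo, the membrane protein that Ptch1 holds inactive until a hedgehog ligand binds, stood at 20.3 to 30.0 with a median of 24.2 (mean 25.2 ± 3.31 SD, n = 7). Smo and Ihh, neighbours in the order of levels, did not differ beyond their spread: the geometric mean fold was 1.08, and Smo was higher in 5 of 7 mice (exact sign-flip permutation test, p = 0.328, adjusted over the 8 neighbouring pairs p = 0.375).

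Ptch1, the hedgehog receptor, followed at 7.20 to 9.40 with a median of 8.54 (mean 8.36 ± 0.863 SD, n = 7). It lay below Ihh in every mouse, and below Smo as well, at 0.252 to 0.443 of the Smo level (exact sign-flip permutation test for either pair, p = 0.0156). Among the transcription factors, Gli1, the activator whose own gene is a hedgehog target, was at 3.30 to 5.27 with a median of 3.74 (mean 3.96 ± 0.692 SD, n = 7). Gli2, the main activator that is present before the signal, had a mean level of 2.88 ± 0.509 (SD, n = 7), and Gli3, which acts chiefly as a repressor when no ligand is bound, 2.85 ± 0.249 (SD, n = 7). The difference between Gli2 and Gli3 was within the spread of the mice (geometric mean fold 1.00, exact sign-flip permutation test, p = 0.953, the same after adjustment over the 8 pairs). Gli1 was above Gli2 in 6 of 7 mice, by 1.38-fold in the geometric mean (exact permutation p = 0.0312, adjusted p = 0.050).

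Hhip, a membrane protein that binds and sequesters hedgehog ligands, had a mean level of 2.18 ± 0.249 (SD, n = 7) and was below Gli3 in all 7 mice (exact permutation p = 0.0156, adjusted p = 0.0312). Hhip and Pthlh at the lower end did not differ beyond their spread, with Hhip higher in 4 of 7 mice (exact permutation p = 0.203, adjusted p = 0.271). The steps from Pth1r to Smo, from Ihh to Ptch1 and from Ptch1 to Gli1 all held in 7 of 7 mice at an adjusted exact permutation p of 0.0312. With the longest transcript in place of merged exons as the length, Gli3 at 3.34 came before Gli2 at 2.98, while the other neighbours kept their order.

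**Figure D1:**
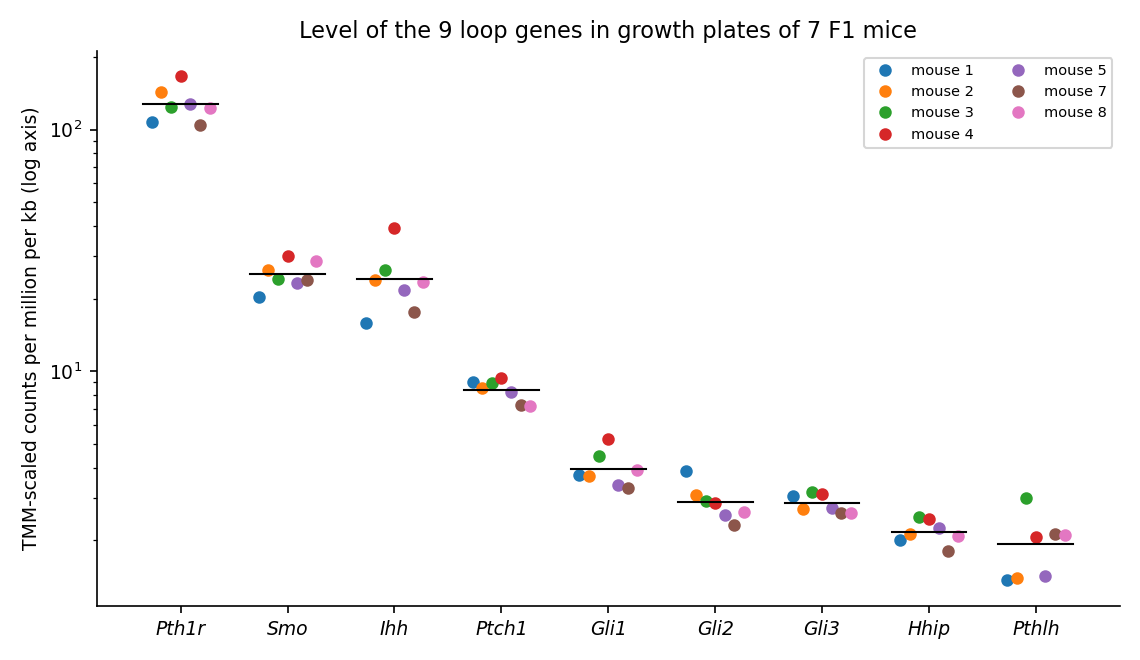
Level of each of the 9 genes in each of the 7 mice, as TMM-scaled CPM per kilobase on a log axis. Points are mice and lines are means. Pth1r lies between 104 and 167, and Pthlh lies between 1.37 and 2.98. The red points, mouse 4, are the highest for Pth1r, Smo, Ihh, Ptch1 and Gli1.

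Over all 7 mice the 2 ligands varied most, which for Ihh rested on mouse 4. The coefficient of variation over the 7 mice was 31.9% for Ihh and 30.4% for Pthlh, against a median of 12.1% over the 12318 tested genes with at least as many mean counts as Pthlh. That placed Ihh above 96.5% and Pthlh above 95.9% of those genes, though Pthlh had the fewest counts of the set. Without mouse 4 the coefficient for Ihh was 18.6%, above 82.4% of those genes and below the 19.3% of Gli2, and that for Gli1 was 11.2%. Pthlh stayed between 22.2% and 33.5% with any 1 mouse left out, and Gli2 came to 10.2% without mouse 1. Gli3 varied least, at 8.73%, followed by Ptch1 at 10.3%, Hhip at 11.4% and Smo at 13.1%. Pth1r, Gli1 and Gli2 lay between 16.8% and 17.7%. Mouse 4 had the highest Ihh level, 39.3, and mouse 1 the lowest, 15.9, a 2.48-fold range. The highest Pthlh level was that of mouse 3.

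Several of the 9 genes were correlated between mice before adjustment for the number of pairs, and none after it. The log2 levels of Ihh and Pth1r had Pearson's r = 0.92 and Spearman's rho = 0.79 (exact permutation p = 0.00536 and p = 0.0480), and r = 0.75 without mice 1 and 4, which lay farthest from the median of Ihh. The adjusted p was 0.193 for r and 0.432 for rho over the 36 pairs of the 9 genes. Ptch1 and Gli3 had r = 0.89 and rho = 0.86 (exact permutation p = 0.0109 and p = 0.0238, adjusted p = 0.196 and p = 0.410), and r = 0.84 without mice 7 and 8. In all, 6 of the 36 pairs had an unadjusted exact permutation p under 0.05 for r, and 0 after adjustment.

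The summed level of hypertrophic cartilage markers was correlated with Ihh, Pth1r, Smo and Hhip by r, again only before adjustment. It was lowest in mice 1 and 7, at 3299 and 3363, which also had the lowest Ihh and Pth1r, and highest in mouse 4, at 5893. For Ihh, r with this sum was 0.94 and rho 0.89 (exact permutation p = 0.00159 and p = 0.0123), with r = 0.92 without mice 1 and 4. For Pth1r, r was 0.94 and rho 0.82 (exact permutation p = 0.00238 and p = 0.0341), with r = 0.88 without mice 4 and 7. The adjusted p was 0.118 for both values of r and 0.260 for both values of rho, over 99 pairs of a gene and a marker list. For Gli2 and the osteoblast markers the values were r = 0.81 and rho = 0.89 (exact permutation p = 0.0187 and p = 0.0123, adjusted p = 0.196 and p = 0.260), and r = 0.98 without mice 1 and 7. The osteoblast sum was mostly Col1a1, so the other genes of that list hardly enter these values. The general cartilage markers had r = 0.88 with Ihh and 0.91 with Pth1r, and the endothelial markers r = 0.81 with Gli2 (exact permutation p = 0.0115, p = 0.00496 and p = 0.0133, adjusted p = 0.188, p = 0.164 and p = 0.188). Inverse values were as large. Adipocyte markers had r = -0.89 with Gli1 and with Gli3 (exact permutation p = 0.00714 and p = 0.0111, adjusted p = 0.177 and p = 0.188). B-lineage markers had r = -0.81 with Gli3 (exact permutation p = 0.0198, adjusted p = 0.196). Of the 99 pairs 15 had an unadjusted exact permutation p under 0.05 for r, and 0 after adjustment. The part that the mix of tissues has in these levels was not tested.

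**Figure D2:**
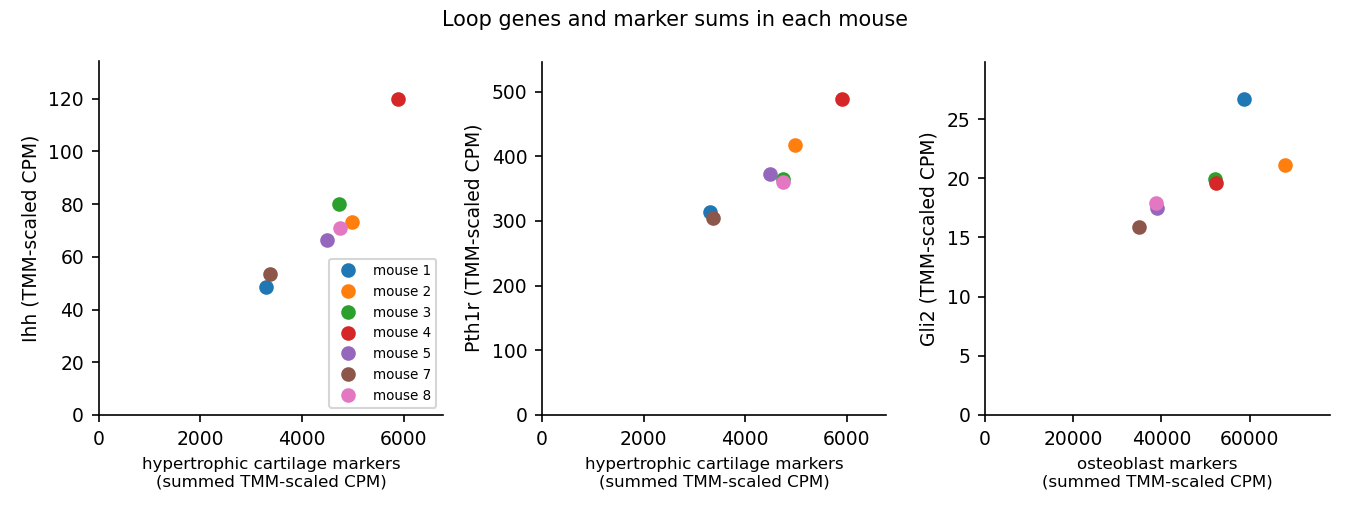
Level of Ihh, Pth1r and Gli2 (TMM-scaled CPM, vertical axes) against the summed level of hypertrophic cartilage or osteoblast markers (horizontal axes, same scale), 1 point per mouse. Mouse 4 has both the highest hypertrophic marker sum, 5893, and the highest Ihh and Pth1r, and mice 1 and 7 the lowest.

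Of the 15110 other genes that reached 10 counts in each mouse, those whose level was most like that of Ihh over the 7 mice were Eps8l2 (Pearson's r = 0.99), the FGF receptor gene Fgfr3 (r = 0.98), Loxl3, of the lysyl oxidase family (r = 0.98), the cartilage matrix gene Comp (r = 0.98) and P4ha2, a subunit of the enzyme that hydroxylates collagen prolines (r = 0.98). All points share the same 7 libraries and their scaling, and 153 of the 15110 genes (1.01%) had r above 0.9 with Ihh. Fgfr3 was at 305 CPM on average and Comp at 2802, against 73.2 for Ihh.

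Allele differences were compared with edgeR's likelihood-ratio test between the 7 CAST and the 7 B6 columns. Fold changes are CAST against B6, and FDR values were adjusted over all 20239 tested genes. Calls were made at the study's FDR threshold of 0.20. Of the 9 loop genes 3 were called: Pth1r and Gli1 with more RNA from the CAST allele and Smo with more from the B6 allele. This share of 33.3% stands beside 34.5% of all tested genes called in either direction, and 35.1% of the 12318 genes with at least the mean counts of Pthlh. Both backgrounds hold X-linked and mitochondrial genes, for which males do not carry both alleles. With autosomal genes only, 6183 genes were called instead of 6984, and 1 of the 9 loop genes. The share of autosomal tested genes called was not computed, so that 1 of 9 has no background beside it. The differences of the 9 loop genes were small, none beyond 0.25 on the log2 scale. The unadjusted likelihood-ratio p was 0.0634 for Pth1r, 0.0613 for Gli1 and 0.0505 for Smo, each above 0.05. The median size of the log2 fold change was 0.17 over the 9 genes, 0.22 over all tested genes and 0.15 over those 12318 genes.

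Pth1r (ENSMUSG00000032492; chromosome 9, 110722085 to 110747145, minus strand, GRCm38/mm10) had the most even allele shift between mice. Its B6 counts ran from 2016 to 6802 with a median of 4939, and its CAST counts from 2405 to 7809 with a median of 5489. The CAST share was above 50% in all 7 mice, between 52.6% and 55.0%, and averaged 53.7% ± 0.867 (SD, n = 7). On the log2 scale the fold change was 0.23 (SE 0.125, edgeR FDR 0.188), which is 1.17-fold. Within mice the log2 ratio averaged 0.22 ± 0.0503 (SD, n = 7; exact sign-flip permutation test, p = 0.0156). Myl3 on the opposite strand shares 95 exon bases with Pth1r and had 11 to 144 counts, few beside those of Pth1r.

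Gli1 (ENSMUSG00000025407; chromosome 10, 127329882 to 127341974, minus strand) had 117 to 310.0 B6 counts with a median of 244, and 122 to 352 CAST counts with a median of 281. All 7 mice again had more CAST counts, though mice 7 and 8 were close to parity with CAST shares of 51.0% and 50.8%. For Gli1 the log2 fold change was 0.24 (SE 0.129, edgeR FDR 0.183), and the mean log2 ratio within mice was 0.21 ± 0.128 (SD, n = 7; exact sign-flip permutation test, p = 0.0156). Gli1 shares 62 exon bases with Arhgap9 on the opposite strand, which had 302 to 781 counts and a log2 fold change of 0.21 (edgeR FDR 0.486), and 265 exon bases with the antisense gene Gm47200, which was not analysed here. Whether the counting used strand is not given in the sources used here, so reads over the shared bases may belong to any of these genes.

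Smo (ENSMUSG00000001761; chromosome 6, 29735503 to 29761365, plus strand) went the other way. It had 1117 to 2651 B6 counts with a median of 2016, and 831 to 2475 CAST counts with a median of 1810. Every mouse had more B6 counts. The CAST share was lowest in mice 8 and 7, at 42.3% (95% Wilson interval 40.7% to 43.9%) and 42.7% (40.5% to 44.9%), and closest to parity in mouse 3, at 49.5% (48.0% to 51.1%). Smo had a log2 fold change of -0.22 (SE 0.111, edgeR FDR 0.159), 1.16-fold higher from B6. The mean log2 ratio within mice was -0.23 ± 0.158 (SD, n = 7; exact sign-flip permutation test, p = 0.0156). Intervals such as these cover counting error only, as PCR copies are not independent molecules and reads that fit both alleles are divided between them.

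The same allele was thus ahead in all 7 mice for 3 of the 9 genes, beside 24.6% of all tested genes. None of the 3 calls was firm in the unpaired test. Pth1r was not called by edgeR's quasi-likelihood test (FDR 0.204) or without mouse 2, 3, 5, 7 or 8 (FDR 0.206 to 0.314), Gli1 not without mouse 1, 2, 3, 4 or 5 (edgeR FDR 0.203 to 0.291), and Smo not without mouse 2, 7 or 8 (edgeR FDR 0.241 to 0.366). The alleles are paired within each mouse, and more genes passed when the mouse entered as a replicate block. The likelihood-ratio test then called 6 of the 9, beside 45.3% of all tested genes: CAST was higher for 4 of them, beside 21.7%, and B6 for 2, beside 23.6%. The quasi-likelihood test then called 5 of the 9, beside 40.3%: CAST was higher for 3, beside 19.2%, and B6 for 2, beside 21.2%. The blocked quasi-likelihood FDR was 0.000112 for Pth1r, 0.00937 for Gli1 and 0.0342 for Smo.

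**Figure D3:**
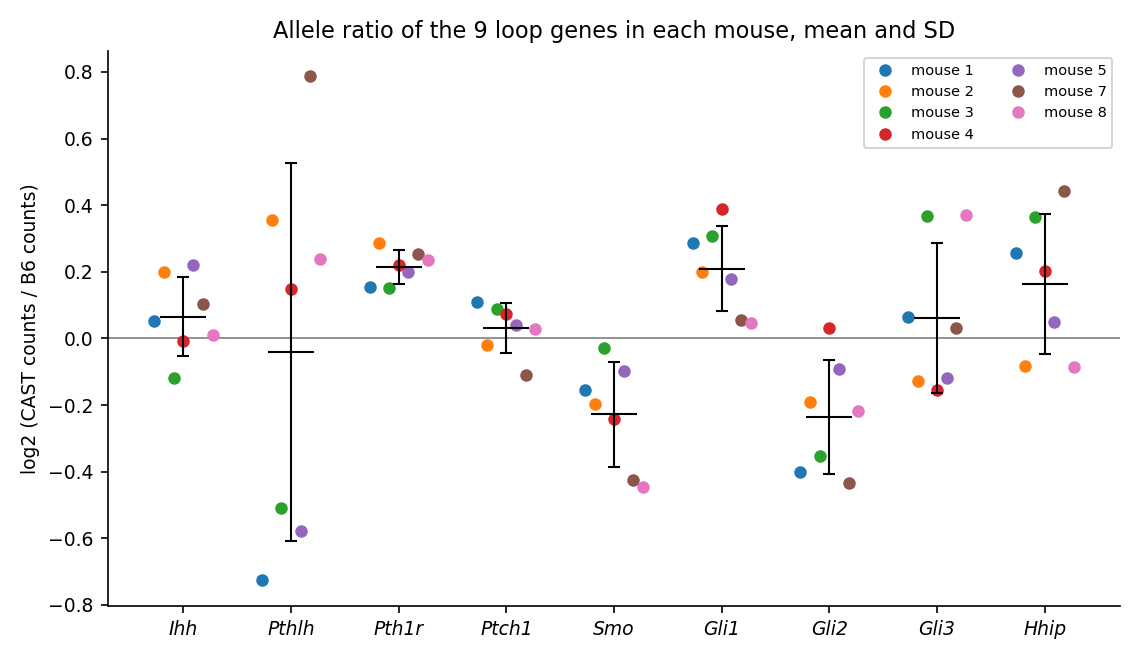
CAST over B6 counts as a log2 ratio, with 0.5 added to either count, for the 9 genes. Points are the 7 mice, and black marks are the mean and SD. All points lie above 0 for Pth1r and Gli1 and below 0 for Smo, and the Pthlh points spread from -0.73 to 0.79.

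Gli2 (ENSMUSG00000048402; chromosome 1, 118834132 to 119053619, minus strand) had 132 to 508 B6 counts with a median of 319, and 97.8 to 385 CAST counts with a median of 250. B6 was ahead in 6 of 7 mice, and mouse 4 was at parity with a CAST share of 50.5%. Its log2 fold change of -0.22 (SE 0.135) did not pass (edgeR FDR 0.253), and the mean log2 ratio within mice was -0.24 ± 0.171 (SD, n = 7; exact sign-flip permutation test, p = 0.0312). Gli2 passed once the mouse was a block, at an FDR of 0.00305 in the likelihood-ratio and 0.0376 in the quasi-likelihood test of edgeR.

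Hhip (ENSMUSG00000064325; chromosome 8, 79965851 to 80058006, minus strand) had 101 to 395 B6 counts with a median of 277, and 137 to 409 CAST counts with a median of 267. CAST was ahead in 5 of 7 mice, with shares from 48.5% in mouse 8 to 57.7% in mouse 7. The log2 fold change of 0.17 (SE 0.111) did not pass (edgeR FDR 0.294; exact sign-flip permutation test, p = 0.109). Once the mouse was a block it passed, at FDR 0.0800 and 0.148 in the 2 edgeR tests.

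Ptch1, Ihh, Gli3 and Pthlh had fold changes within 0.1 of 0 on the log2 scale. Ptch1 (ENSMUSG00000021466; chromosome 13, 63508328 to 63573598, minus strand) had 775 to 2243 B6 counts and 718 to 2306 CAST counts, and its CAST share stayed between 48.1% and 51.9%. Its log2 fold change was 0.051 (SE 0.0978, edgeR FDR 0.832; exact sign-flip permutation test, p = 0.328). The blocked likelihood-ratio test gave Ptch1 an FDR of 0.102 and the blocked quasi-likelihood test 0.246. Ihh (ENSMUSG00000006538; chromosome 1, 74945315 to 74951672, minus strand) had 375 to 1200.3 B6 counts and 402 to 1398 CAST counts. Its CAST share ran from 47.9% in mouse 3 to 53.8% in mouse 5, with CAST ahead in 5 of 7 mice. The log2 fold change of Ihh was 0.069 (SE 0.195, edgeR FDR 0.917; exact sign-flip permutation test, p = 0.219).

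Gli3 (ENSMUSG00000021318; chromosome 13, 15463235 to 15730026, plus strand) had 179 to 534 B6 and 183 to 499 CAST counts. Mice 3 and 8 had CAST shares of 56.4% in either case, mice 1 and 7 of 51.1% and 50.5%, and mice 2, 4 and 5 of 47.3% to 47.9%. Its log2 fold change was 0.079 (SE 0.102, edgeR FDR 0.701; exact sign-flip permutation test, p = 0.516).

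Pthlh (ENSMUSG00000048776; chromosome 6, 147252101 to 147264183, minus strand) had the widest spread of allele ratios between mice and the fewest counts. Counts ran from 18.2 to 81.2 for B6 with a median of 36.2, and from 27.8 to 56.8 for CAST. CAST was ahead in 4 mice and B6 in 3. The CAST share of single mice went from 37.5% (mouse 1, 95% Wilson interval 27.6% to 49.2%) to 63.6% (mouse 7, 50.1% to 75.9%). Pthlh had a log2 fold change of -0.024 (SE 0.262, edgeR FDR 1.00; exact sign-flip permutation test, p = 0.859), and its sign turned when mouse 1, 3 or 5 was left out, to 0.058, 0.10 and 0.050. The SD of its log2 ratio over the 7 mice was 0.568, larger than the fold changes of Pth1r and Smo.

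**Figure D4:**
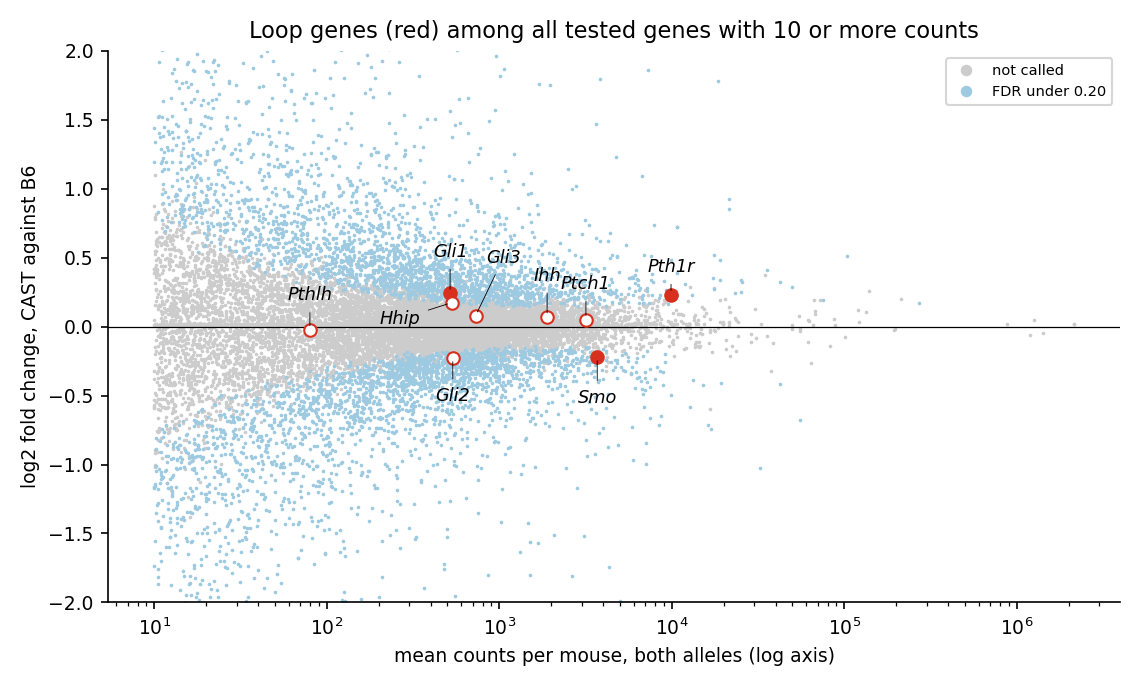
Log2 fold change of CAST against B6 (vertical axis) by mean counts per mouse of both alleles (horizontal log axis) for 16871 tested genes with 10 or more counts, 949 of which lie beyond the limits of 2 in either direction. Loop genes are red circles, filled where the FDR is under 0.20 (Pth1r, Gli1 and Smo), and sit near the centre of the cloud, between -0.22 and 0.24.

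Allele ratios of the 9 genes were also set against each other within mice, a comparison chosen after the values were seen. The log2 ratio of Pth1r exceeded that of Smo in all 7 mice, by 0.44 ± 0.193 (SD, n = 7), and that of Gli1 exceeded that of Gli2 in all 7 mice, by 0.45 ± 0.174 (SD, n = 7). Pth1r and Gli1 lay above 0 and Smo below 0 in all 7 mice. The signs of the differences of Pth1r and of Gli1 from Smo were thus fixed beforehand and add no further evidence. Between Pth1r and Gli1 the difference was 0.0057 ± 0.159 (SD, n = 7; exact permutation p = 0.938, adjusted p = 0.964). Of the 36 pairs 10 reached the smallest exact permutation p, 0.0156, which became 0.0562 after adjustment over the 36.

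Beyond the loop, 56 further genes of hedgehog and PTHrP signalling were listed, of which 51 were tested. The other hedgehog ligand gene Shh and the hormone genes Pth and Pth2 had 0 counts in every mouse, and Lrp2 and Pth2r averaged 0.286 and 1.00 counts. Of the 51 genes 15 were called (29.4%), 7 higher from CAST and 8 from B6, beside 16.0% of all tested genes called for CAST and 18.5% for B6. Their median log2 fold change was -0.018, and that of all tested genes 0.012. With the mouse as a block 24 (47.1%) were called in the likelihood-ratio test of edgeR, beside 45.3% of all tested genes, and 19 (37.3%) in its quasi-likelihood test, beside 40.3%.

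Among genes for ligands and their release, 4 of the 6 tested were called, 2 for each allele, beside 34.5% of all tested genes in either direction. Disp1, which releases lipid-modified hedgehog from the cell, and Scube1, a secreted relative of the release factor Scube2, were higher from CAST (log2 fold changes 0.36 and 0.22, edgeR FDR 0.0104 and 0.0867). Hhat, the enzyme that attaches palmitate to hedgehog ligands, and Scube2, which helps shed them, were higher from B6 (-0.44 and -0.60, edgeR FDR 0.00204 and 1.11e-05). Each of these 4 differences had the same sign in all 7 mice. Totals were fractional in 6 mice for Hhat and in 1 for Scube1, as can occur where the estimation divides reads among genes. Scube3, a further relative, was not called (log2 fold change -0.26, edgeR FDR 0.544), but B6 was ahead in all 7 mice and it passed in the blocked likelihood-ratio test (FDR 2.93e-06).

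In reception and transduction, 6 of 18 tested genes were called (33.3%, beside 34.5% of all tested genes). Tulp3, which carries receptors into the primary cilium, was higher from CAST in all 7 mice, at 420 ± 127.8 counts against 304 ± 96.8 from B6 (SD, n = 7; log2 fold change 0.49, edgeR FDR 1.34e-06). Its totals were fractional in every mouse, as can occur where the estimation divides reads among genes. Gpr161, a ciliary receptor that restrains the pathway, the co-receptor gene Boc and the kinase gene Csnk1a1 were also higher from CAST, with log2 fold changes of 0.40, 0.25 and 0.15 (edgeR FDR 0.0310, 0.0451 and 0.193). Evc2, which acts with Evc to relay the signal of Smo at the base of the cilium, was higher from B6 in all 7 mice (log2 fold change -0.42, edgeR FDR 0.000485), while Evc itself stood at -0.066 (edgeR FDR 0.751). Spop, a ubiquitin ligase adaptor that acts on Gli proteins, was higher from B6 in 6 of 7 mice (log2 fold change -0.25, edgeR FDR 0.0404). Its totals were fractional in 5 of 7 mice. The co-receptor gene Cdon, an uncalled gene with 2161 counts on average, had a log2 fold change of 0.15 (edgeR FDR 0.401). CAST was ahead for Cdon in all 7 mice, and it passed with the mouse as a block (likelihood-ratio FDR 2.89e-06).

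Of 8 tested hedgehog target genes, Foxc2 alone was called (12.5%, beside 34.5% of all tested genes), at 82.7 ± 33.6 counts from B6 against 54.1 ± 20.4 from CAST (SD, n = 7; log2 fold change -0.61, edgeR FDR 0.00915), with B6 ahead in 6 of 7 mice. The cell cycle gene Ccnd2, with 2934 counts on average, had -0.010 (edgeR FDR 1.00).

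PTHrP signalling had 4 called genes of 19 tested (21.1%, beside 34.5% of all tested genes). Gnas, which encodes the G protein subunit that couples Pth1r to cyclic AMP, was higher from B6 in all 7 mice, at 11058 ± 3431 counts against 8231 ± 2471 from CAST (SD, n = 7; log2 fold change -0.41, edgeR FDR 7.57e-06). Gnas belongs to a locus with imprinted transcripts, and its totals were fractional in every mouse. Arrb1, an arrestin that takes activated receptors such as Pth1r out of signalling, was higher from B6 by -0.59 on the log2 scale (edgeR FDR 5.93e-08), again with fractional totals in every mouse. Prkar1a, the regulatory subunit that holds protein kinase A inactive, was higher from CAST in all 7 mice (log2 fold change 0.38, edgeR FDR 1.75e-05). Zfp521, a nuclear factor downstream of PTHrP, was higher from B6 in 6 of 7 mice (-0.21, edgeR FDR 0.141). Gna11 and Mef2d, with 2277 and 2013 counts, were not called (0.014 and -0.029, edgeR FDR 1.00 and 0.969).

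**Figure D5:**
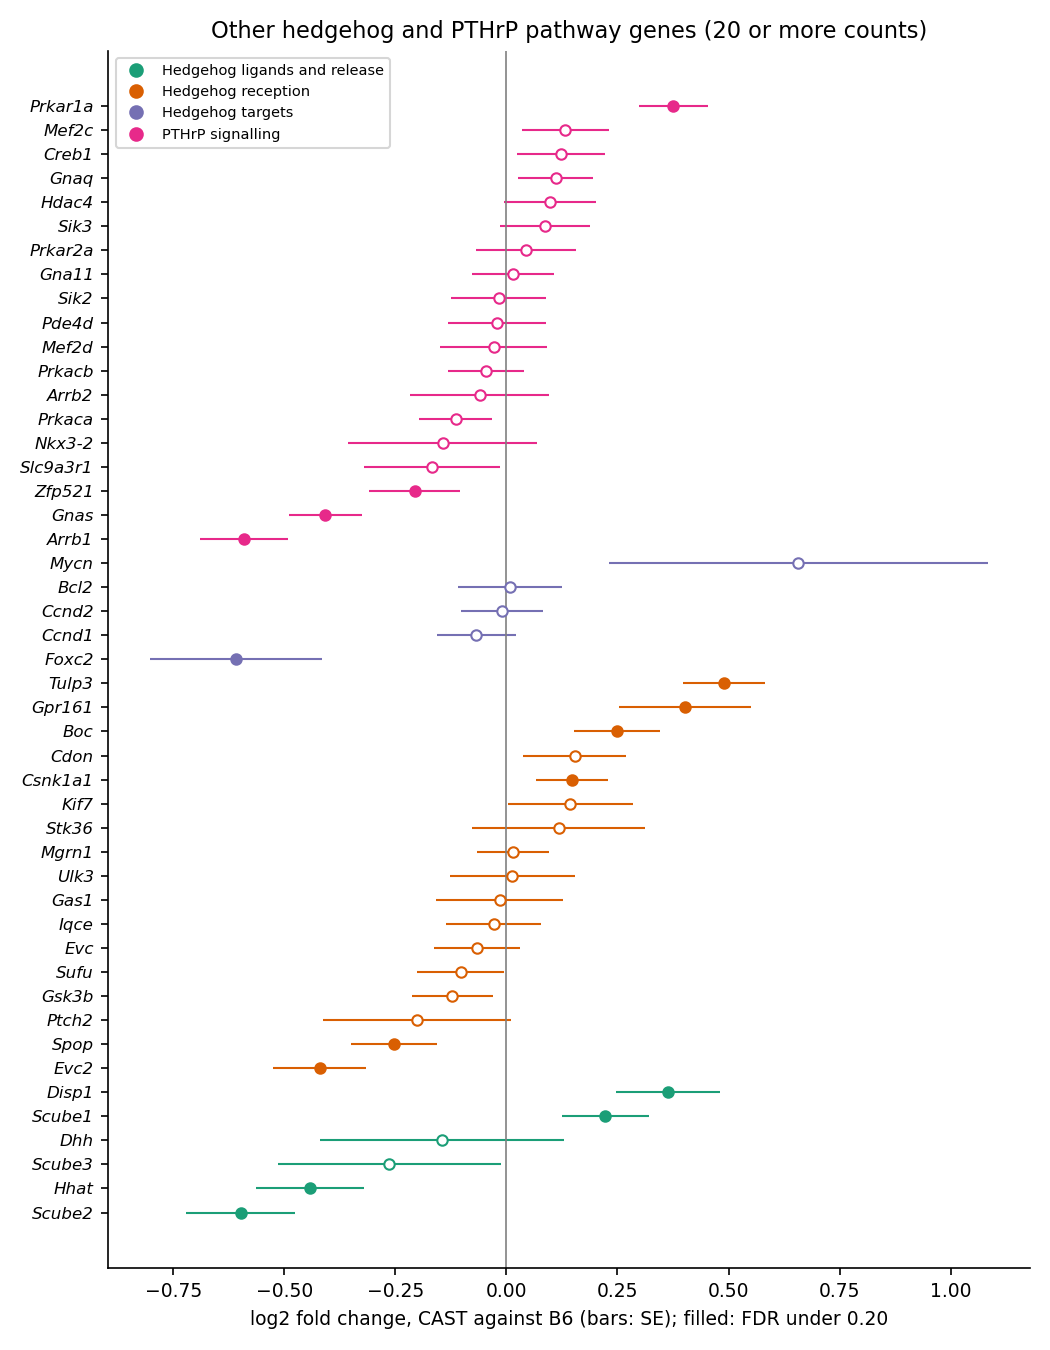
Log2 fold change of CAST against B6 with its SE for 47 tested pathway genes with 20 or more mean counts, coloured by list and filled where the FDR is under 0.20. Called genes lie on both sides of 0, from Foxc2 at -0.61 to Tulp3 at 0.49.

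Promoters (250 bases before to 50 after a start site, RefSeq, GRCm38.p6) were at hand for 8 of the 9 genes, Gli1 not among them. So few short windows cannot show whether these genes lack Gli sites, as the exact motif searched is rare among all windows. The Gli binding motif GACCACCCA, searched as these exact letters on both strands, occurred in 0 of their 10 promoter windows and in 83 of all 32851 windows (0.253%).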

How the data were processed

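Per the labels and the study's methods, the authors aligned reads with Bowtie to a joint B6 (mm10) and CAST transcriptome, with at most 3 mismatches, made with g2gtools, and then divided reads among genes and alleles with EMASE, taking both read ends separately. The deposited values are the resulting estimated counts, without normalization. The members and gene lists were chosen with earlier results of these data known. Estimates under 5e-10 were set to 0. A gene was tested where each mouse had a count above 0 for either allele. Counts were rounded and fitted with edgeR 4.0.16 (TMM, estimateDisp, glmFit and glmLRT, R 4.3.3), with Benjamini-Hochberg FDR over all tested genes. SEs come from the information matrix of the fit. Alleles of a mouse are paired by the animal; their deviations correlated at r = 0.0585 on average within mice and -0.0101 between mice. Single genes were tested by exact sign-flip permutation of log2 ratios (0.5 added). Names, exon lengths and coordinates are from GENCODE M21 (GRCm38), which held 42462 of the 43346 identifiers. No pair of mice agreed within sampling noise (chi-square per degree of freedom 14.45 to 96.35). Depth limits precision for genes with few counts. The fit was tested on simulated data. Total counts per mouse were 14098019 to 37849667. Named genes were the 9 members, list genes called at an FDR under 0.20, the 5 uncalled list genes with the most counts (1 of them is not reported here) and the 5 genes most like Ihh; Evc, Scube3 and the list genes without counts were named after their values were seen. Alternatives were the quasi-likelihood test of edgeR, DESeq2 1.42.0, 1 library size per mouse, other filters, an FDR threshold of 0.05, counts not rounded, autosomal genes only, a replicate block, another pseudocount, length or scaling, and each mouse left out. Litters are not given in the sources used here. Python 3.11.15 libraries made summaries and plots.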

Additional observations from a re-analysis of the deposited data

How the results depend on the processing

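Of the 9 loop genes, 3 were called as reported, 2 under the quasi-likelihood test or DESeq2, 1 with no filter or with autosomal genes only, 0 at an FDR under 0.05, 6 and 5 under the replicate block (mouse) (likelihood-ratio and quasi-likelihood test), and between 0 and 2 with 1 mouse left out. Pth1r lost its call under the quasi-likelihood test, no filter and autosomal genes only (log2 fold changes 0.23, 0.24 and 0.23), and Gli1 under DESeq2, no filter and autosomal genes only (0.24, 0.24 and 0.23). The replicate block added Ptch1 (0.055, likelihood-ratio test only), Gli2 (-0.22 in both tests) and Hhip (0.17 in both), and it changed no other call among the 9. With 1 mouse left out, log2 fold changes ran from 0.22 to 0.24 for Pth1r, 0.21 to 0.28 for Gli1, -0.25 to -0.17 for Smo and -0.16 to 0.10 for Pthlh, whose sign reversed without mouse 1 (0.058), 3 (0.10) or 5 (0.050). The mean log2 ratio of Pthlh ran from -0.18 to 0.074 and reversed without the same mice (0.074, 0.038 and 0.049). That of Gli2, from -0.28 to -0.20, had an exact permutation p of 0.0625 without any mouse but mouse 4. The replicate block raised the called pathway genes from 15 to 24, and all called genes from 6984 to 9167. Leaving out mice for the coefficient of variation and keeping estimates under 5e-10 were chosen after seeing the data, and the latter left 3 loop genes and 15 pathway genes called. Levels depended on the scale: without Rn7s1, Rn7s2 and Rn7sk, which held 15.5% to 23.8% of counts, they were 159 for Pth1r, 31.5 for Smo, 29.7 for Ihh, 10.4 for Ptch1, 4.94 for Gli1, 3.61 for Gli2, 3.56 for Gli3, 2.72 for Hhip and 2.41 for Pthlh. With the longest transcript as length they were 162 for Pth1r, 37.5 for Smo, 29.7 for Ihh, 11.4 for Ptch1, 4.88 for Gli1, 3.34 for Gli3, 2.98 for Gli2, 2.18 for Hhip and 1.94 for Pthlh. In these levels the same counts were divided by a smaller total or another length, so the levels moved with the divisor. The cause of the other shifts was not tested.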
